A study of Mus musculus with 18 samples.

Results

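The interleukin-6 family of cytokines, its receptor subunits and its feedback gene were followed in injured mouse kidneys. The 10 genes described are 5 ligands (*Lif*, *Il6*, *Il11*, *Clcf1* and *Osm*), 4 receptor subunits (*Il6ra*, *Il6st*, *Lifr* and *Osmr*) and *Socs3*, out of 45706 genes in the count tables. They were taken by name, and the family was selected on KO and control levels that earlier comparisons of these kidneys had shown. The fold changes and adjusted p-values of these genes are therefore a description of them and carry no independent weight.

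Whole kidneys of male C57BL/6 mice aged 10 to 12 weeks were sequenced 12 h into reperfusion, which followed ischemia of both kidneys for 22.5 min. Doxycycline switches on TetOCre through the Pax8rtTA transgene, and the recombinase removes the floxed gene in tubule cells. There were 5 *Cxcl12* KO kidneys (*Cxcl12* F/F, Pax8rtTA, TetOCre), 3 *Cxcl12* control kidneys (*Cxcl12* F/F, Pax8rtTA), 5 *Myc* KO kidneys (*Cmyc* F/F, Pax8rtTA, TetOCre) and 5 *Myc* control kidneys (*Cmyc* F/F, Pax8rtTA). All mice received doxycycline for 14 days with a washout of 1 week, and all kidneys were injured, so that no value below is a response to injury itself. The recombinase does not act in endothelial, stromal or blood cells, and a whole kidney holds all of these.

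Cytokines of this family signal through IL6ST (gp130), a receptor chain that most cells carry. Interleukin-6 and interleukin-11 first bind a chain of their own and then pair IL6ST with itself, whereas LIF, cardiotrophin-like cytokine and oncostatin M join IL6ST to LIFR or OSMR. The receptors activate JAK kinases and the transcription factor STAT3, which induces *Socs3*, and the SOCS3 protein in turn blocks IL6ST. In the kidney, injured tubule cells, stromal cells and infiltrating leukocytes are known sources of these cytokines.

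Reads on genes numbered 12918220 to 29749500 per kidney. An unmapped share under 5% set 6 kidneys apart, with 22437067 to 29749500 reads on genes against 12918220 to 18006784 in the other 12. They were *Cxcl12* KO 1 and 2, *Myc* KO 3 and 5, and *Myc* control 1 and 3, and no *Cxcl12* control kidney. Levels are given as CPM, the reads on a gene scaled to the library size after TMM normalization, and ± marks an SD for levels and a standard error (SE) for log2 fold changes. *Cxcl12* had 53.5 ± 7.9 CPM in *Cxcl12* control (SD, n = 3) and 32.3 ± 6.1 CPM in *Cxcl12* KO kidneys (SD, n = 5). *Myc* had 94.9 ± 14.5 CPM in *Myc* control and 31.0 ± 3.9 CPM in *Myc* KO kidneys (SD, n = 5 each). In both lines the target gene was lower in every KO than in every control kidney. Proximal tubule, distal nephron and podocyte markers were present in all 18 kidneys, and T cell markers summed to at most 2.45 CPM.

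*Lif* (ENSMUSG00000034394, chromosome 11, 4257557 to 4272514 on GRCm38) and *Osm* (ENSMUSG00000058755, chromosome 11, 4236420 to 4241026) are neighbouring genes on the plus strand. *Il6* (ENSMUSG00000025746) lies on chromosome 5 from 30013114 to 30019981, *Il11* (ENSMUSG00000004371) on chromosome 7 from 4772373 to 4782859 and *Socs3* (ENSMUSG00000053113) on chromosome 11 from 117966079 to 117970047. Reads were counted without regard to strand. *Il6ra* overlaps the antisense gene *Gm42809*, and *Clcf1* overlaps the miRNA gene *Gm26115* and, on its own strand, the protein-coding gene AC109138.7, which is not among the 45706 genes counted. Reads from the shared stretches cannot be told apart.

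The stretches before the start sites of the genes on which the results turn were read from RefSeq (GRCm38.p6), where 8 of the 10 genes had a window and *Clcf1* and *Osm* had none. The windows reach 250 bases upstream of the RefSeq start, and bases from the first GENCODE exon on the same strand onward were left off. *Lif* is at chr11:4257318-4257556 (plus strand), *Il6* at chr5:30012864-30013113 (plus strand), *Il11* at chr7:4778142-4778391 (minus strand, before the downstream of 2 starts), *Il6ra* at chr3:89913197-89913446 (minus strand) and *Socs3* at chr11:117969452-117969616 (minus strand). Capitals mark matches to the motifs searched.
Lif: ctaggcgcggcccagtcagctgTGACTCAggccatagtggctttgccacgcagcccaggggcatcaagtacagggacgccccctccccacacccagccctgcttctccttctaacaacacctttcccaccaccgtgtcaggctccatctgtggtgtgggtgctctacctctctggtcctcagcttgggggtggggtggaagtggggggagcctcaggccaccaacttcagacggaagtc
Il6: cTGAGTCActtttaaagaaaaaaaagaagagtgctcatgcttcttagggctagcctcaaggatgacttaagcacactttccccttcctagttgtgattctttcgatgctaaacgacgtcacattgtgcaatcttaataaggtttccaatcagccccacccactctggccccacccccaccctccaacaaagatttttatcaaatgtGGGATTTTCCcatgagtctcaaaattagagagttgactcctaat
Il11: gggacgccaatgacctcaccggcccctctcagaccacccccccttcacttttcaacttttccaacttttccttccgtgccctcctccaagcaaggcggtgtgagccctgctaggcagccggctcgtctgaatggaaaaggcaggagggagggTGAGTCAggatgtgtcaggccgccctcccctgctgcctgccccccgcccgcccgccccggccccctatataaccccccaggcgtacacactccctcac
Il6ra: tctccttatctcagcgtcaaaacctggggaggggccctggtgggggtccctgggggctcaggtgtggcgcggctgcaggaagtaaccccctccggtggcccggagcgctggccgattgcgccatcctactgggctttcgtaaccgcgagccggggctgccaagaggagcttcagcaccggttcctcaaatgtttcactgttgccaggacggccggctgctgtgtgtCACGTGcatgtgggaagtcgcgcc
Socs3: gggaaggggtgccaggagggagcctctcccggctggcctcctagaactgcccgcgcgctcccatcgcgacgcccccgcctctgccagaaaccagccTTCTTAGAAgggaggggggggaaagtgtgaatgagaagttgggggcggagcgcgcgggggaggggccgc

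Both strands of the full windows were searched for 5 motifs. These were the STAT motif TTCNNNGAA, found in 7.02% of 32851 promoter windows of the genome, the AP-1 motif TGANTCA (6.75%), the E-box CACGTG (6.02%), a consensus NF-kB motif (4.11%) and the CRE TGACGTCA (1.55%). The 3 ligands with a window, *Lif*, *Il6* and *Il11*, each held an AP-1 match, from bases 228 to 222, 249 to 243 and 98 to 92 before the start. *Clcf1* and *Osm* had no window, so whether the match goes with the size of the KO difference could not be seen. *Il6* also held an NF-kB match at 44 to 35 bases before the start. *Socs3* held a STAT match (154 to 146) and *Il6ra* an E-box (24 to 19), the letters that MYC and its partner MAX bind. The other windows of *Il6st*, *Lifr*, *Osmr* and the upstream *Il11* start held none of the 5. Each match is a match of letters and not a shown binding site.

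Per kilobase of exon (RPKM), the shared receptor chain and the feedback gene were the most abundant of the family. *Il6st* had 37.8 ± 4.0 RPKM over the 18 kidneys (SD) and *Socs3* 35.5 ± 13.7 RPKM. Their order was not fixed, since *Il6st* lay above *Socs3* in 11 of 18 kidneys. *Lif* followed with 25.2 ± 15.5 RPKM and lay below *Socs3* in 17 of 18 kidneys. *Clcf1* (15.4 ± 2.3 RPKM), which encodes a ligand of the ciliary neurotrophic factor receptor, lay below *Lif* in 11 of 18 kidneys. *Il11* had 11.9 ± 6.6 and *Il6* 8.48 ± 6.22 RPKM, with *Il11* above *Il6* in 17 of 18 kidneys.

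The mean of *Il6* was near those of *Lifr* and *Osmr*, and *Il6* lay above *Lifr* in 9 of 18 kidneys. In *Cxcl12* control kidneys, *Lifr* (8.04 RPKM) and *Osmr* (5.32 RPKM) had higher means than *Il11* (4.65 RPKM) and *Il6* (1.98 RPKM). *Lifr* had 7.54 ± 0.84 and *Osmr* 7.27 ± 2.00 RPKM, and neither lay above the other in more than 9 of 18 kidneys. *Il6ra*, the chain that binds interleukin-6, had 3.00 ± 0.69 RPKM and lay below *Osmr* in all 18. *Osm* was last in all 18 kidneys with 0.657 ± 0.586 RPKM, from only 2 to 106 reads per kidney. Within groups, *Il6st* was first in *Cxcl12* KO, *Cxcl12* control and *Myc* control kidneys by its mean, and *Socs3* was first and *Lif* second in *Myc* KO kidneys.

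**Figure D1:**
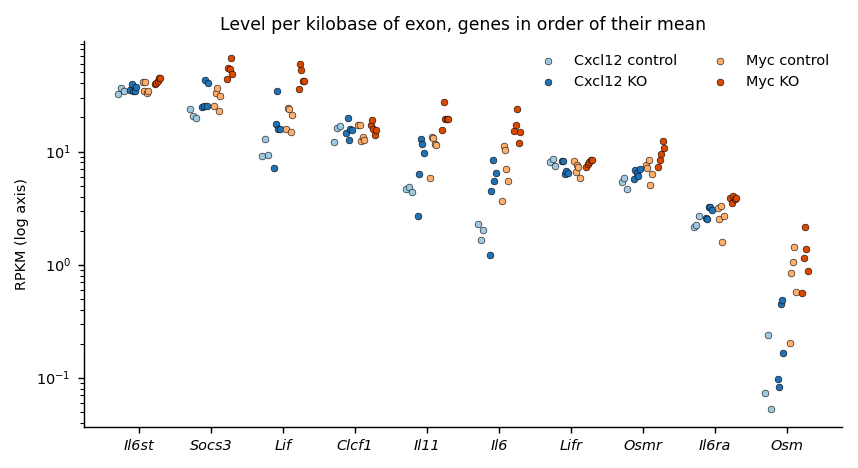
Level of each gene per kilobase of exon (RPKM, log axis) in the 18 kidneys, 1 point per kidney, coloured by group, with genes ordered by their mean. *Il6st* and *Socs3* stand highest, *Osm* is last in every kidney, and *Lif*, *Il11* and *Il6* spread further between groups than *Il6st*, *Lifr* and *Clcf1*.

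*Lif*, *Il11* and *Il6* spanned a wider range between kidneys than the receptor genes. The highest kidney had 8.27 times the lowest CPM for *Lif*, 10.1 times for *Il11* and 19.5 times for *Il6*, against 1.38 times for *Il6st*, 1.48 times for *Lifr*, 2.59 times for *Il6ra* and 2.62 times for *Osmr*. *Clcf1*, with 1.63 times, lay within the range of the receptor genes.

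The first question was whether the family differed between injured kidneys with and without tubular *Myc*. In *Myc* KO kidneys *Lif* and *Socs3* were higher than in controls, *Lif* 2.32 times and *Socs3* 1.79 times by the ratio of mean CPM. *Il6* (2.20 times) and *Il11* (1.82 times) were also higher in every *Myc* KO than in every control kidney, with adjusted p-values just above 0.05. The receptor chains differed by 1.13 to 1.45 times. All 10 log2 fold changes were above 0, with a median of 0.56 against -0.0008 over the 14936 genes tested.

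*Lif*, a cytokine known from stem cell culture and from tissue repair, had 157, 256, 228, 182 and 184 CPM in *Myc* KO kidneys 1 to 5. *Myc* control kidneys 1 to 5 had 68.8, 106, 104, 64.9 and 91.0 CPM. The groups did not overlap, and the lowest KO kidney lay well above the highest control. The log2 fold change was 1.22 ± 0.17 (SE, adjusted p = 0.010, edgeR's quasi-likelihood test with Benjamini-Hochberg adjustment over all genes). It was the 13th highest log2 fold change of the 14936 genes. *Lif* passed in each of the 10 fits that left out 1 kidney.

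*Socs3*, the feedback inhibitor, had 127, 157, 154, 193 and 139 CPM in *Myc* KO kidneys 1 to 5. The *Myc* control kidneys had 72.9, 95.7, 106, 66.2 and 88.9 CPM. Again every KO kidney lay above every control. The log2 fold change was 0.84 ± 0.14 (SE, edgeR adjusted p = 0.018). It was lost without *Myc* KO 2 or without *Myc* KO 3, each of which left only *Lif* past the threshold among the 10 genes.

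*Il6*, the founding member of the family and an acute-phase inducer, had 36.8, 41.3, 57.6, 28.9 and 36.5 CPM in *Myc* KO kidneys and 8.79, 27.3, 24.9, 17.2 and 13.3 CPM in *Myc* controls. *Il11*, known for its part in epithelial and stromal injury responses, had 32.0, 57.0, 40.4, 40.3 and 40.4 CPM in *Myc* KO kidneys and 12.1, 28.0, 27.6, 24.4 and 23.6 CPM in *Myc* controls. For both genes the groups did not overlap, although the *Il6* gap was narrow, between the lowest KO at 28.9 and the highest control at 27.3 CPM. The log2 fold changes were 1.14 for *Il6* (SE 0.27) and 0.87 for *Il11* (SE 0.21), each with an edgeR adjusted p of 0.059.

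The remaining ligands did not pass. *Clcf1* had 62.1 CPM on average in *Myc* KO and 55.4 CPM in *Myc* control kidneys (log2 fold change 0.17 ± 0.12 SE, edgeR adjusted p = 0.41). *Osm*, a product of neutrophils and macrophages, had 1.27 to 4.85 CPM in *Myc* KO and 0.462 to 3.26 CPM in *Myc* control kidneys, and the groups overlapped (log2 fold change 0.60 ± 0.44 SE, edgeR adjusted p = 0.45).

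Among the receptor chains, *Il6ra* had 33.3, 30.4, 35.3, 32.8 and 33.7 CPM in *Myc* KO kidneys and 27.4, 22.0, 28.3, 13.6 and 23.1 CPM in *Myc* controls. All *Myc* KO kidneys lay above all controls, and control 4 was the lowest of all. The log2 fold change of *Il6ra* was 0.53 ± 0.16 (SE, edgeR adjusted p = 0.099). *Osmr*, which pairs with IL6ST to bind oncostatin M, had 89.2 to 150 CPM in *Myc* KO and 61.6 to 101 CPM in *Myc* control kidneys, with a log2 fold change of 0.49 ± 0.15 (SE, edgeR adjusted p = 0.11). *Il6st* (0.20 ± 0.09) and *Lifr* (0.17 ± 0.09) differed least, and neither passed.

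**Figure D2:**
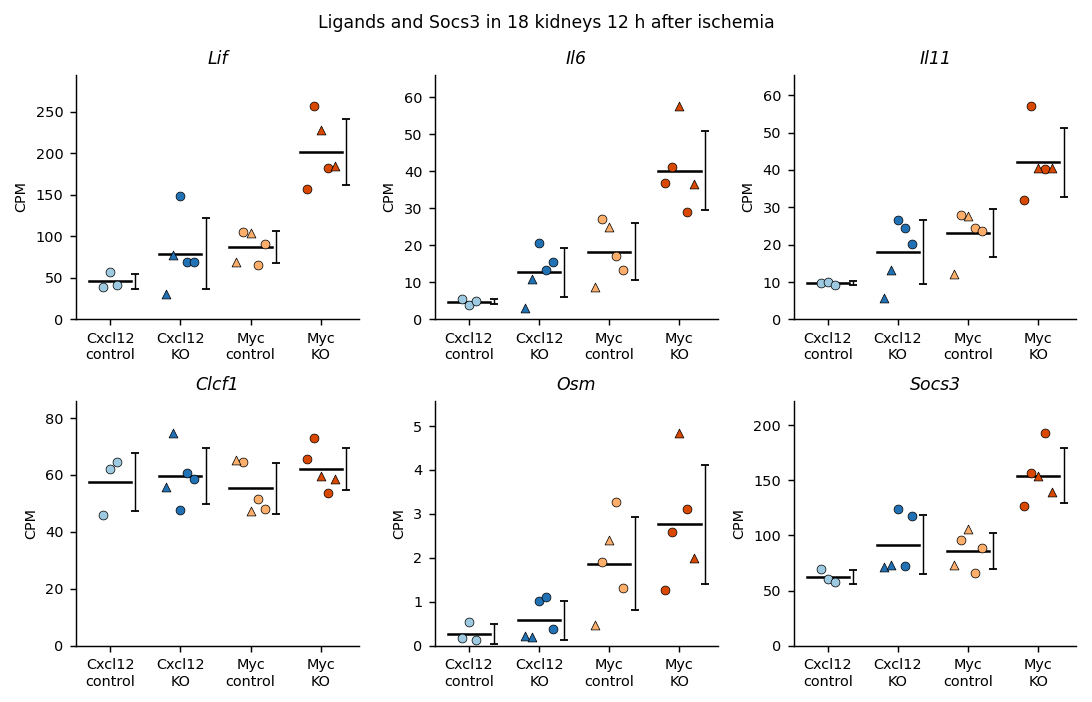
CPM of the 5 ligands and *Socs3* in each of the 18 kidneys by group (linear axes from 0). Lines mark the group mean, bars the SD (n = 3 in *Cxcl12* control, 5 in the other groups), and triangles the 6 kidneys with under 5% of reads unmapped. In the *Myc* line every KO kidney lies above every control for *Lif*, *Il6*, *Il11* and *Socs3*, while *Clcf1* and *Osm* overlap.

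**Figure D3:**
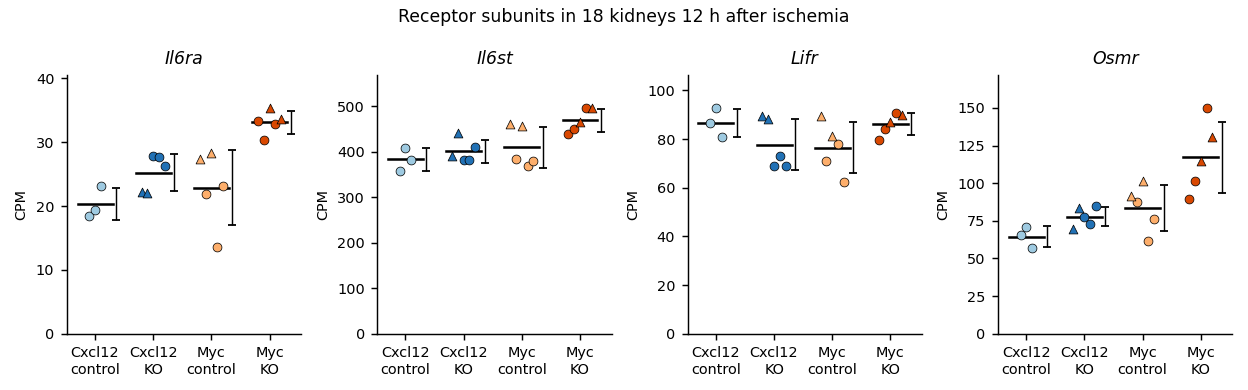
CPM of the 4 receptor subunits in each of the 18 kidneys by group, with means, SD and triangles as for the ligands. *Il6ra* is the only receptor gene of the 4 whose *Myc* KO kidneys, at 30.4 to 35.3 CPM, all lie above the *Myc* controls, at 13.6 to 28.3 CPM.

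In all, 2 of the 10 genes passed an adjusted p under 0.05 as higher in *Myc* KO kidneys, where 0.355% of all tested genes did, and 0 of 10 passed as lower, where 1.29% of all genes did. Without overlap, 5 of 10 were higher (*Lif*, *Il6*, *Il11*, *Il6ra* and *Socs3*), against 2.05% of all tested genes. At an unadjusted p under 0.05, 7 of 10 were higher, against 10.6% of all tested genes. The genes were chosen with this comparison in view, and nothing is read from these shares.

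The count of 2 depended on the fit. It was 6 with DESeq2 and 5 with a term for the mapping group, both of which added *Il6*, *Il11* and *Il6ra*. The calls over all 14936 genes moved as well, from 53 higher in the main fit to 485 with DESeq2 and 363 with the mapping-group term. Without the 6 kidneys of low unmapped share, with 3 kidneys against 3, the count of members was 0, and 4 of all 15033 genes were called higher. In that fit *Lif* had a log2 fold change of 1.20 (adjusted p = 0.057) and *Socs3* one of 0.94 (adjusted p = 0.058). Leaving out *Myc* control 3 raised the count of members to 5, with 433 of all 15108 genes called higher. Within the mapping groups the ratios of mean CPM held their direction. *Lif* was 2.39 times higher in *Myc* KO kidneys among the 2 and 2 kidneys of low unmapped share and 2.28 times among the other 3 and 3. For *Socs3* these ratios were 1.64 and 1.90, for *Il6* 2.79 and 1.85, and for *Il11* 2.04 and 1.70, and in each of these comparisons all KO kidneys lay above all controls.

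Markers of other cells were compared as well. The 8 neutrophil markers summed to 166 to 319 CPM in *Myc* KO and to 53.8 to 280 CPM in *Myc* control kidneys, and none of them was at 0 in all kidneys. All 7 tested neutrophil markers had positive log2 fold changes, but 0 of 7 had an unadjusted p under 0.05 and 0 of 7 passed after adjustment. The 6 endothelial markers summed to 788 to 1164 CPM in *Myc* KO and 587 to 997 CPM in *Myc* control kidneys, and the 4 podocyte markers to 709 to 806 against 420 to 732 CPM. At an unadjusted p under 0.05, 3 of 6 endothelial and 2 of 4 podocyte markers were higher, against 10.6% of all tested genes. After adjustment 0 of these passed. The 8 macrophage markers spanned 110 to 155 CPM in *Myc* KO and 108 to 152 CPM in *Myc* control kidneys. The 6 markers of injured tubule summed to 15520 to 24445 CPM in *Myc* KO and 13494 to 21460 CPM in *Myc* control kidneys. *Spp1* made up most of these sums by its mean, with 15301 CPM in *Myc* KO and 12836 CPM in *Myc* control kidneys. Of the log2 fold changes of the 6 markers 3 were positive, with a range from -1.32 to 0.26. *Havcr1* went the other way from the sums, with 203 ± 79 CPM in *Myc* KO and 507 ± 298 CPM in *Myc* control kidneys. The part of these cells in the ligand differences was not tested. In whole kidneys, more cells of a type and more RNA per cell cannot be told apart.

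The same genes were compared in the *Cxcl12* line, with 3 controls. *Il6* had 2.64 times, *Il11* 1.86 times, *Lif* 1.73 times and *Socs3* 1.47 times the mean CPM of controls in *Cxcl12* KO kidneys, but the KO kidneys scattered widely and no gene passed. The receptor chains differed by 0.90 to 1.24 times. Of the 9 genes tested (*Osm* was filtered out for low counts), 8 had a positive log2 fold change (*Clcf1* turned negative with the mapping-group term and without the 6 kidneys of low unmapped share), with a median of 0.31 against 0.0008 over 15154 genes.

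*Lif* had 31.0, 76.9, 149, 69.0 and 69.1 CPM in *Cxcl12* KO kidneys 1 to 5 and 39.5, 56.5 and 40.8 CPM in the controls. *Il6* had 2.95, 10.9, 20.6, 13.4 and 15.6 CPM against 5.53, 3.98 and 4.90 CPM, and *Il11* had 5.63, 13.2, 26.7, 24.5 and 20.3 CPM against 9.79, 10.1 and 9.15 CPM. For all 3 ligands KO kidneys 2 to 5 lay above every control, and KO kidney 1 lay below every control. The log2 fold changes were 0.78 for *Lif* (SE 0.38, edgeR adjusted p = 0.41), 1.38 for *Il6* (SE 0.47, edgeR adjusted p = 0.26) and 0.88 for *Il11* (SE 0.39, edgeR adjusted p = 0.38).

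*Socs3* had 71.2, 73.0, 124, 72.6 and 117 CPM in *Cxcl12* KO kidneys and 69.3, 60.1 and 57.6 CPM in controls. All 5 KO kidneys lay above the controls, 3 of them by little. Its log2 fold change was 0.55 ± 0.20 (SE, edgeR adjusted p = 0.30). *Socs3* was the only one of the 10 genes without overlap in this line, where 4.96% of all tested genes were higher in the KO without overlap.

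*Osmr* had 69.8 to 84.6 CPM in *Cxcl12* KO and 57.0 to 70.6 CPM in control kidneys (log2 fold change 0.27 ± 0.10 SE, edgeR adjusted p = 0.30), and *Il6ra* had 22.0 to 27.8 against 18.4 to 23.1 CPM (0.31 ± 0.12 SE, edgeR adjusted p = 0.33). *Lifr* alone had a negative log2 fold change of -0.16 ± 0.11 (SE, edgeR adjusted p = 0.57). *Il6st* (0.06) and *Clcf1* (0.05) were close to equal, within standard errors of 0.09 and 0.15.

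Of the 10 genes 0 were called in the *Cxcl12* line, as were 0 of all 15154 genes (0%), although 1976 genes (13%) had an unadjusted p under 0.05, among them 5 of the members as higher (*Il6*, *Il11*, *Il6ra*, *Osmr* and *Socs3*), against 6.41% of all genes in that direction. DESeq2 also called 0 of the members, and 353 of all genes. Without *Cxcl12* KO kidney 1, *Il6* had a log2 fold change of 1.64 (edgeR adjusted p = 0.043), and *Lif* and *Il11* still did not pass. Without the 6 kidneys of low unmapped share, which leaves 3 KO and 3 control kidneys, *Il6* had 1.76 (edgeR adjusted p = 0.017) and *Il11* 1.28 (edgeR adjusted p = 0.014). *Cxcl12* KO kidneys 1 and 2 both belonged to the kidneys of low unmapped share and no control did, so that no comparison within that group was possible.

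Neutrophil markers summed to 44.7, 35.1, 160, 152 and 62.3 CPM in *Cxcl12* KO kidneys 1 to 5 and to 22.2 to 30.7 CPM in the controls. At an unadjusted p under 0.05, 7 of 7 tested markers were higher, against 6.41% of all tested genes, and 0 of 7 passed after adjustment. The 6 markers of injured tubule summed to 13303 to 21047 CPM in the KO and 10811 to 12454 CPM in the control kidneys. *Spp1* made up most of these sums by its mean, with 13274 CPM in the KO and 8895 CPM in the control kidneys. The log2 fold changes of the 6 markers were unequal, from 0.10 to 0.68. The part of neutrophil and injured tubule cells in the ligand values was not tested.

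**Figure D4:**
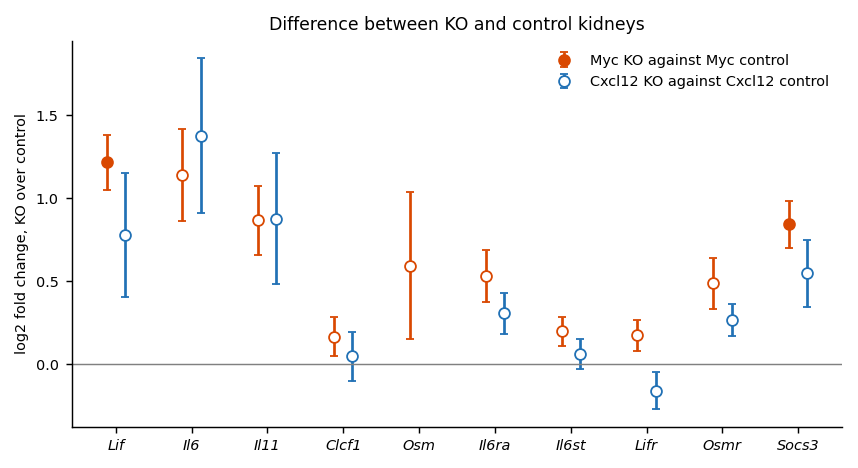
Log2 fold change of KO over control with its standard error for each gene in the *Myc* and *Cxcl12* lines, from edgeR. Filled points have an adjusted p under 0.05 (*Lif* and *Socs3* in the *Myc* line), *Osm* was not tested in the *Cxcl12* line, and the *Cxcl12* errors of *Lif*, *Il6* and *Il11* are wider than those of the *Myc* line.

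Whether the KO effect differed between the lines was tested over all 18 kidneys. Of the 10 genes 0 differed at an adjusted p under 0.05, where 0.0692% of the 15903 genes tested did. At an unadjusted p under 0.05, 1 gene, *Lifr*, was found, against 11.4% of all genes, and 0 of the 10 passed with DESeq2 or limma-voom. The *Myc* effect minus the *Cxcl12* effect was 0.43 on the log2 scale for *Lif* (SE 0.42), -0.24 for *Il6* (SE 0.56), -0.01 for *Il11* (SE 0.45), 0.29 for *Socs3* (SE 0.26) and 0.33 for *Lifr* (SE 0.15, edgeR adjusted p = 0.40). With errors of this size the ligand effects were neither shown to differ nor shown to be alike.

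Between the injured control kidneys of the lines, *Il6* differed and the other 9 genes did not pass. *Il6* had 18.3 ± 7.8 CPM in *Myc* control (SD, n = 5) and 4.81 ± 0.78 CPM in *Cxcl12* control kidneys (SD, n = 3), 3.81 times as much and without overlap. The log2 difference was 1.93 ± 0.46 (SE, edgeR adjusted p = 0.037). *Il6* was the 1 gene of the 10 that passed as higher, where 1.12% of 15903 genes did, and 0 passed as lower (0.868% of all genes). *Lif* (86.8 ± 19.1 against 45.6 ± 9.4 CPM) and *Il11* (23.1 ± 6.5 against 9.69 ± 0.49 CPM) did not overlap either, with log2 differences of 0.93 ± 0.33 (SE, edgeR adjusted p = 0.14) and 1.25 ± 0.36 (SE, edgeR adjusted p = 0.077). Without overlap, 6.23% of all genes were higher in *Myc* controls. *Osm* had 0.462 to 3.26 against 0.120 to 0.538 CPM, and its log2 difference of 2.70 ± 0.73 (SE, edgeR adjusted p = 0.062) rests on few reads.

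Mouse line, cohort and any sequencing batch cannot be told apart in this comparison of controls. The *Il6* call was lost without any of the 3 *Cxcl12* controls, without *Myc* control 2 or 3, and in limma-voom. Neutrophil markers summed to 53.8 to 280 CPM in *Myc* and 22.2 to 30.7 CPM in *Cxcl12* control kidneys, with 4 of 8 passing as higher, against 1.12% of all tested genes. Their part in the *Il6* difference was not tested. Both KO comparisons were made against these different control levels. The mean of *Lif* in *Cxcl12* KO kidneys (78.9 ± 42.8 CPM, SD, n = 5) was near that of *Myc* controls, and so was that of *Socs3* (91.7 ± 26.7 against 85.9 ± 16.3 CPM).

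The rest of the pathway was read from lists of further family genes, signal transducers, negative regulators and genes that STAT3 is known to induce. Of 11 further ligands and receptors, 6 were expressed highly enough to be tested, and 0 of 6 passed in any of the 4 comparisons. At an unadjusted p under 0.05, 1 of 6 was found in each comparison, and DESeq2 called 0. Of all genes, such a p was found for 3268 of 14936 in the *Myc* line and 1976 of 15154 in the *Cxcl12* line. It was found for 1812 of 15903 for the difference between lines and 2815 of 15903 between the controls. *Cntf*, *Ctf2*, *Il27*, *Ebi3* and *Il31* were filtered out. *Cntfr*, the receptor chain that binds CLCF1, had the smallest p in *Myc* KO kidneys, with 5.84 ± 1.53 against 3.75 ± 1.21 CPM (log2 fold change 0.63, edgeR adjusted p = 0.16). *Il11ra1*, the private chain for interleukin-11, had 20.7 ± 1.7 against 19.1 ± 2.2 CPM (log2 fold change 0.12, edgeR adjusted p = 0.49). In *Cxcl12* KO kidneys *Il31ra* (log2 fold change 0.88, edgeR adjusted p = 0.35) and *Il27ra* (-0.56, edgeR adjusted p = 0.48) had the smallest p. *Il31ra* (1.34, edgeR adjusted p = 0.14) and *Il27ra* (-0.43, edgeR adjusted p = 0.50) also had the smallest p between the controls.

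Of the 12 kinases, STAT factors and adaptors, 0 passed in any of the 4 comparisons, with 1 or 2 at an unadjusted p under 0.05 in each. DESeq2 called 1 in the *Myc* line, where it called 1131 of all 14936 genes. *Jak2*, a kinase bound to IL6ST, had 99.1 ± 9.6 CPM in *Myc* KO and 80.1 ± 6.6 CPM in *Myc* control kidneys (log2 fold change 0.31, edgeR adjusted p = 0.086). In the *Cxcl12* line *Jak2* had 78.9 ± 4.4 against 67.7 ± 2.7 CPM (0.22, edgeR adjusted p = 0.29). *Shc1* in the *Myc* line (0.16, edgeR adjusted p = 0.23) and *Stat5a* in the *Cxcl12* line (-0.27, edgeR adjusted p = 0.35) came next.

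The list of 14 negative regulators included the proteases *Adam10* and *Adam17*. Of the 14 genes, 1 passed as higher in *Myc* KO kidneys, where 0.355% of all tested genes did. *Socs5*, a relative of *Socs3*, rose from 53.9 ± 3.9 to 72.8 ± 6.7 CPM (log2 fold change 0.44 ± 0.08 SE, edgeR adjusted p = 0.025). The call was lost without the 6 kidneys of low unmapped share (adjusted p = 0.085) and without *Myc* KO 2, 3 or 5 or *Myc* control 2 or 4. With 13 of 14 log2 fold changes positive, the median of the list was 0.16. In *Cxcl12* KO kidneys *Ptpn2*, a phosphatase of the JAK kinases, had 42.6 ± 3.1 against 33.1 ± 0.7 CPM (0.36, edgeR adjusted p = 0.13) and *Socs5* 55.6 ± 4.5 against 45.4 ± 2.6 CPM (0.29, edgeR adjusted p = 0.23), and neither passed. Between the controls *Socs2* (0.56, edgeR adjusted p = 0.020) and *Ptpn2* (0.38, edgeR adjusted p = 0.032) were higher in the *Myc* line, as were 1.12% of all tested genes. This count of 2 fell to 0 without *Cxcl12* control 1 or 2 or *Myc* control 3, and to 1 without *Cxcl12* control 3 or *Myc* control 2 or 5.

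Of 29 STAT3-induced genes, 25 were tested in the *Myc* line and 0 passed, with 18 positive log2 fold changes and a median of 0.27. At an unadjusted p under 0.05, 6 of the 25 were higher, against 10.6% of all tested genes. DESeq2 called 4 of the list as higher, and 485 of all 14936 genes. *Pim1*, a survival kinase, had 44.2 ± 3.8 CPM in *Myc* KO and 28.9 ± 7.6 CPM in *Myc* control kidneys (log2 fold change 0.61, edgeR adjusted p = 0.070). *Junb* had 297 ± 43 against 213 ± 37 CPM (0.48, edgeR adjusted p = 0.087).

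In the *Cxcl12* line 24 of the 29 were tested and 0 passed, with 19 positive log2 fold changes and a median of 0.40. At an unadjusted p under 0.05, 12 of the 24 were higher, against 6.41% of all tested genes. DESeq2 called 4 of the list as higher, and 149 of all 15154 genes. *Cd14*, the lipopolysaccharide co-receptor, had 103 ± 35 CPM in *Cxcl12* KO and 39.6 ± 1.1 CPM in control kidneys (log2 fold change 1.38, edgeR adjusted p = 0.079), and *Pim1* had 29.0 ± 5.9 against 16.9 ± 0.4 CPM (0.77, edgeR adjusted p = 0.097). Of the fibrinogen genes, *Fgg* had 955 ± 610 against 321 ± 113 CPM. *Fgg* and *Cd14* had the smallest p of the list for the difference between the lines, at -1.63 and -1.12 on the log2 scale (edgeR adjusted p = 0.20 for each).

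Between the controls, 4 of 26 tested STAT3-induced genes were higher in the *Myc* line, where 1.12% of all tested genes were. The count was 2 with limma-voom. It was 0 without *Cxcl12* control 1 or 2, 1 without *Cxcl12* control 3 and 2 without *Myc* KO 3 or *Myc* control 2 or 3. *Saa3*, an acute-phase protein made outside the liver, differed by 3.48 on the log2 scale, *Cd14* by 1.45, *Lcn2*, which encodes the kidney injury marker NGAL, by 1.14 and *Pim1* by 0.78 (edgeR adjusted p between 0.014 and 0.039). *Lcn2* had 1152 ± 374 CPM in *Myc* control and 524 ± 78 CPM in *Cxcl12* control kidneys. Several of these genes are also made by neutrophils and macrophages. The neutrophil sums of the controls are given above. The 8 macrophage markers summed to 108 to 152 CPM in *Myc* control and 104 to 127 CPM in *Cxcl12* control kidneys. The part of these cells in the differences was not tested.

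Whether *Socs3* followed its ligands from kidney to kidney was examined after the group means had been removed, so that the KO contrasts did not enter. Over 18 kidneys *Socs3* and *Lif* correlated at r = 0.62 (Pearson) and rho = 0.58 (Spearman) (permutation within groups, two-sided p = 0.022 for each, adjusted p = 0.11 for each over 5 ligands). Without the 2 kidneys farthest from the median of *Lif*, r was 0.41. Pearson r was 0.53 for *Il6*, 0.54 for *Il11*, -0.49 for *Clcf1* and 0.31 for *Osm*, with rho of 0.49, 0.48, -0.38 and 0.22. None of the 5 passed after adjustment, with permutation p for r of 0.077, 0.094, 0.067 and 0.27, and adjusted p of 0.12, 0.12, 0.12 and 0.27. Adjusted p for rho was 0.19, 0.19, 0.20 and 0.45. Without *Myc* KO 4, *Lif* had an adjusted permutation p of 0.030 for r. Without *Cxcl12* KO 3, r of *Lif* fell to 0.45 (adjusted permutation p = 0.28).

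*Clcf1* was the only ligand with a negative r. Without the 2 kidneys farthest from the ligand's median, r was 0.44 for *Il6*, 0.46 for *Il11*, -0.38 for *Clcf1* and 0.40 for *Osm*. Among the 12 kidneys with at least 5% of reads unmapped, r was 0.53 for *Lif*, 0.30 for *Il6*, 0.22 for *Il11*, -0.38 for *Clcf1* and -0.15 for *Osm*, with adjusted permutation p from 0.63 to 0.70. The 6 kidneys of low unmapped share hold 2 kidneys in each of 3 groups and no *Cxcl12* control, and gave no value of their own. *Cxcl12* KO 1 was lowest in its group for *Lif*, *Il6*, *Il11* and *Socs3*, and *Cxcl12* KO 3 was highest for all of these.

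**Figure D5:**
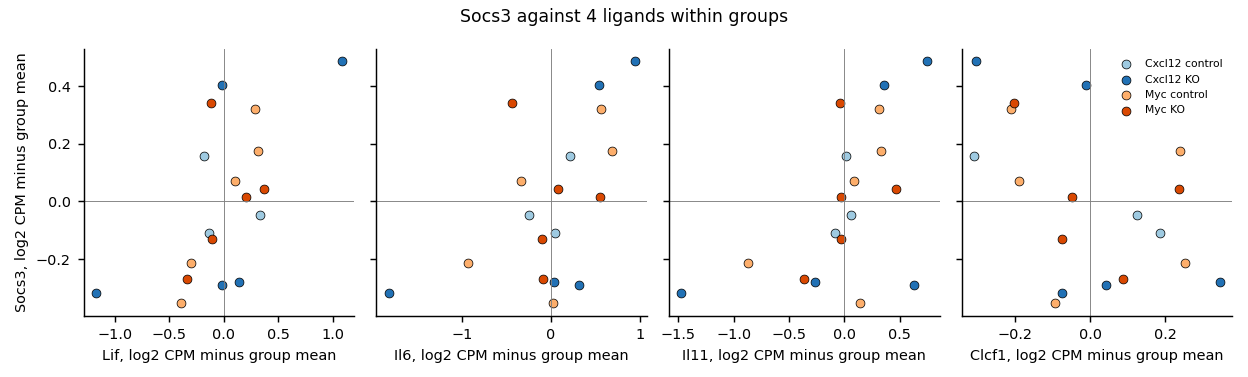
*Socs3* against *Lif*, *Il6*, *Il11* and *Clcf1*, each as log2 CPM minus the mean of its group, with 1 point per kidney coloured by group. Points rise from left to right for the first 3 ligands (r = 0.62, 0.53 and 0.54) and fall for *Clcf1* (r = -0.49), and none of these passed after adjustment over 5 ligands.

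The genes whose level was most like that of each ligand were sought among 13726 other genes with at least 1 CPM, by Pearson r of log2 CPM with group means removed over the same 18 kidneys. These values describe kidneys that share libraries and depth. As the highest of 13726 values over 18 kidneys, they can be high through the search alone. For *Lif* the genes were *Tbkbp1* (r = 0.85), *Timp1* (0.83), which encodes an inhibitor of metalloproteinases, and *Grp* (0.83), which encodes gastrin-releasing peptide. For *Il6* they were *Has1* (0.91), a hyaluronan synthase, *Ptgs2* (0.88), the inducible cyclooxygenase, and *Pik3cd* (0.86). *Il11* shared *Pik3cd* (0.88) and was closest to *Ssbp3* (0.92) and *Slpi* (0.89). For *Clcf1* they were *Lars* (0.89), the leucyl-tRNA synthetase, *Bid* (0.87) and *Foxred2* (0.87). *Osm* was closest to *Rab44* (0.89), *Il1b* (0.86) and *Csf3* (0.85). *Il1b* and *Csf3* encode inflammatory cytokines.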

How the data were processed

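RNA of 18 whole kidneys was sequenced, with 1 library per kidney. Per the labels and the study's methods, the authors trimmed reads with Trimmomatic 0.32, aligned them to GRCm38 and obtained gene counts with STAR 2.4.0. They deposited raw counts, and the column that ignores the strand was used. Reads that STAR assigned to no gene (29.4 to 32.6% per kidney) were left out of library sizes. The study's batch correction was not used here. Of 45706 genes, 45143 matched GENCODE vM21 and 30346 had a count. The labels number the replicates without saying that they are separate animals, and p-values measure the spread between these kidneys. Counts of kidneys of 1 group differed by more than sampling noise (chi-square over its degrees of freedom, 6.0 to 74.5).

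The 10 genes, the gene lists and the cut at 5% of unmapped reads were chosen with earlier results of these data known. Each line was fitted alone, after filterByExpr and TMM scaling, with the quasi-likelihood test of edgeR 4.0.16 in R 4.3.3, with Benjamini-Hochberg adjustment over all genes tested. The difference between lines and between controls was fitted over all 18 kidneys. Correlations used log2 CPM (prior count 2) and 100000 permutations within groups. Alternatives were RLE size factors, no filter, DESeq2 1.42.0, limma-voom (limma 3.58.1), a mapping-group term, leaving out the 6 kidneys under 5% unmapped, replicate blocks and leaving out each kidney. Centring on mapping groups was added after seeing the data. Outside the 10 genes, the named genes were, per list and comparison, up to 4 with the largest change past an adjusted p of 0.05 or otherwise the 2 with the smallest p, and the 3 most like each ligand. The genes named for having been filtered out, and *Spp1*, *Havcr1*, *Adam10* and *Adam17*, were added after their values were seen. The fits were tested on simulated data. Tables and figures used Python 3.11.15, pandas 2.3.3, scipy 1.17.1 and matplotlib 3.10.9.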

Additional observations from a re-analysis of the deposited data

Results flagged for a closer look

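In 1 of 30 sets of a gene and a group of 5 kidneys, 1 kidney lay far from the rest. *Il11* in *Myc* control 1 had 12.1 CPM, and the nearest of the other 4 had 23.6 CPM, a gap of 0.72 of the range of the group. Chance alone puts about 1 in 20 sets past this limit. This kidney was also the lowest *Myc* control for *Il6* and *Osm*. Without it the *Il11* log2 fold change of *Myc* KO over control was 0.70 (edgeR adjusted p = 0.040).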

How the results depend on the processing

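The number of members higher in *Myc* KO kidneys, 2, was 4 without a filter on low counts, 6 with DESeq2, 5 with a mapping-group term, 0 without the 6 kidneys under 5% unmapped and 1 to 5 when 1 kidney was left out. In *Cxcl12* KO kidneys, 0 became 2 without those 6 kidneys and 0 to 1 when 1 was left out. Between the controls, 1 became 3 without a filter, with DESeq2 and without the 6 kidneys, 2 with the mapping-group term, 0 with limma-voom and 0 to 3 when 1 was left out. No member was called for the difference between lines in any setting, or as lower in any comparison. The number of genes called of all genes ran from 8 to 1131 in the *Myc* line, where it was 246, from 0 to 353 in the *Cxcl12* line, from 1 to 324 (11) for the difference and from 49 to 801 (316) between the controls. STAT3-induced genes called as higher were 5 without a filter and 4 with DESeq2, the mapping-group term or without the 6 kidneys in the *Cxcl12* line (0), 4 with DESeq2 and 1 with the mapping-group term in the *Myc* line (0), and 7 with DESeq2 and 2 with limma-voom between the controls (4). Negative regulators called as higher were 2 with DESeq2 or the mapping-group term and 0 without the 6 kidneys or with the block in the *Myc* line (1), 1 with DESeq2 in the *Cxcl12* line (0), and 1 without a filter or without the 6 kidneys between the controls (2). The causes were not tested.

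Small values changed sign. *Clcf1* in the *Cxcl12* line (0.05) was -0.0528 with the mapping-group term, -0.0593 without the 6 kidneys and -0.0904 to 0.14 when 1 kidney was left out. Between the controls, *Il6ra* was -0.0571, *Il6st* -0.0278 and *Myc* -0.0023 without the 6 kidneys, *Clcf1* ran from -0.19 to 0.0372 and *Myc* from -0.0409 to 0.24 when 1 was left out. The difference between the lines was 0.18 for *Il6*, 0.31 for *Il11* and 0.0406 for *Osm* in limma-voom, and when 1 kidney was left out it ran from -0.50 to 0.0108 for *Il6*, -0.25 to 0.18 for *Il11* and -1.29 to 0.0797 for *Osm*. Among the 12 kidneys with at least 5% unmapped, r of *Socs3* and *Osm* was -0.15, against 0.31. When 1 kidney was left out, r of *Socs3* and *Lif* ran from 0.45 to 0.69. The adjusted permutation p was 0.28 without *Cxcl12* KO 3, which gave the lowest r, and 0.030 without *Myc* KO 4, which gave the highest.

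Equal replicate numbers were not shown to pair the kidneys, and these few kidneys could not exclude that they do. Correlations of same-numbered KO and control kidneys lay between -0.21 and 0.40 in the *Myc* line. In the *Cxcl12* line they lay between -0.03 and 0.13. In the *Myc* line 1 of 5 KO kidneys correlated best with the control of its own number, and in the *Cxcl12* line 2 of 3 did. With the replicate block, 2 members were called in the *Myc* line, now *Lif* and *Il11* (*Socs3* had an adjusted p of 0.051), with 18 of all genes, and 0 in the *Cxcl12* line. With the block, the difference between lines was 0.24 for *Il6*, 0.48 for *Il11* and 0.15 for *Osm*. With group and block means removed, r with *Socs3* was 0.82 for *Lif*, 0.61 for *Il11*, -0.81 for *Clcf1*, 0.39 for *Il6* and 0.33 for *Osm*. Removing block means ties the values of a KO kidney to those of its same-numbered control. A *Cxcl12* KO kidney without such a control keeps no spread of its own. Permutation within groups breaks these ties, so it gives no usable p-value here, and nothing is read from these r values. No block could be fitted between the controls, since the numbers are nested within the lines.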
